A study of Arabidopsis thaliana with 43 samples.

Results

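Leaves of Arabidopsis thaliana Col-0 seedlings that had never been heated were compared at 2 sampling times, T9 on day 16 and T1 on day 12. The libraries were taken by their time point labels, which gave 8 of the 43 libraries of the series, from 4 of its 22 plates. T1 was sampled at 22 °C at lights on (0 h), and T9 at 22 °C at 7.5 h after lights on. Each time point had 1 plate in each of 2 batches, all of Col-0, the reference wild-type strain, and the leaf tissue of a plate was split into 2 tubes that gave 2 libraries. The plants grew in 16 h of light and 8 h of dark. The other time points followed heat treatments at up to 45 °C and were used here to estimate the spread between plates. T9 is 4 days older than T1 and was taken 7.5 h later in the light period, so age and hour of day cannot be told apart in any value below. The sampling notes use the name T9 for unheated plants before a heat shock and once also for acclimated plants 2 days after it. The temperature labels, with T8 already at 22 °C after the shock, make T9 the unheated sample.

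In plants the circadian clock is a loop of repressors that peak at different hours. The MYB proteins CCA1 and LHY accumulate around dawn and repress evening genes through a promoter sequence called the evening element, the pseudo-response regulators PRR9, PRR7 and PRR5 follow through the day and repress CCA1 and LHY, and GI, FKF1, ELF4 and LUX act in the afternoon and evening. The clock gates starch metabolism, flowering signals and cold-response genes, while leaf age is known for slower changes in growth, phase and senescence genes.

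The T1 and T9 libraries held from 7402471 to 16516446 counts on genes, and lines for reads not assigned to a gene (not uniquely aligned, not aligned, outside genes or ambiguous) made up 11.7% to 21.5% of their tables. Reads not uniquely aligned made up 3.87% to 12.5% of the tables in batch 1 and 13.3% to 16.5% in batch 2. The tubes of 1 plate correlated at 0.980 to 0.989 across loci, libraries of the same time point in different batches at 0.918 to 0.956, and T1 with T9 libraries of the same batch at 0.898 to 0.946, on log values. The last 2 ranges overlap. Tubes of a plate differed by over 3-fold (on CPM plus 0.5) in at least 1 of the 4 plates for 277 of the 20980 loci tested below (1.32%). Tubes were summed, so that a plate is 1 replicate and n = 2 per time point, and p-values measure the spread between plates. Levels are given as CPM, the counts of a locus scaled to the library total after trimmed-mean (TMM) normalisation. The leaf genes RBCS1A, LHCB1.3, RCA and CA1 were abundant at both times and none passed the test, for example RBCS1A at 12190 and 20420 CPM at T1 and 15510 and 14430 CPM at T9 (log2 change -0.10 ± 0.55, SE, adjusted p = 1.00). Summed levels of 12 root markers ran from 548 to 666 CPM at T1 and from 345 to 379 CPM at T9, most of it PYK10 (585 and 465 CPM at T1, 305 and 290 CPM at T9). Summed levels at T1 and T9 were 44.5 to 54.1 and 43.7 to 46.4 CPM for 9 shoot apex markers, 252 to 419 and 284 to 397 CPM for 13 vascular markers, and 99.2 to 123 and 100 to 126 CPM for 17 guard cell and stomatal markers. No tested member of these 4 lists passed, and 1 vascular and 1 guard cell marker had an unadjusted p under 0.05, with none passing in DESeq2 or limma. In whole-leaf RNA, fewer cells of a type and less RNA per cell cannot be told apart. The shoot apex marker WUS had 0 counts in all 8 libraries.

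Of 20980 loci tested, 402 differed between T9 and T1 with an adjusted p under 0.05 (edgeR quasi-likelihood test, all 22 plates, batch as covariate). Transcripts higher on the day 16 afternoon numbered 336, which is 1.6% of loci tested, and 66 were lower, which is 0.315%. The median log2 change was 2.21 among those higher and -1.42 among those lower, against -0.02 over all tested loci, and 189 rose by 2 or more on the log2 scale while 21 fell by as much. All 402 had the same direction in both batches, which selection by this test on the same plates favours, so it is no separate support. The count rests on the spread shared by 22 plates. With the T1 and T9 plates alone, which leave 1 residual degree of freedom, edgeR called 0 loci, with 2981 at an unadjusted p under 0.05, and with the plates sampled at 22 °C it called 137 higher and 15 lower. Without the T1 plate of batch 1 it called 63 higher and 8 lower, without that of batch 2 144 and 28, without the T9 plate of batch 1 149 and 7, and without that of batch 2 151 and 9. Of the 402 loci, 55 passed in all 4 of these fits. The tubes of at least 1 plate differed by over 3-fold in 15 of the 402, among them BAM5, PR1, FRK1, APL3, GGCT2;1, KIN1, RD29B, RAB18, LTP4 and COR15A.

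**Figure D1:**
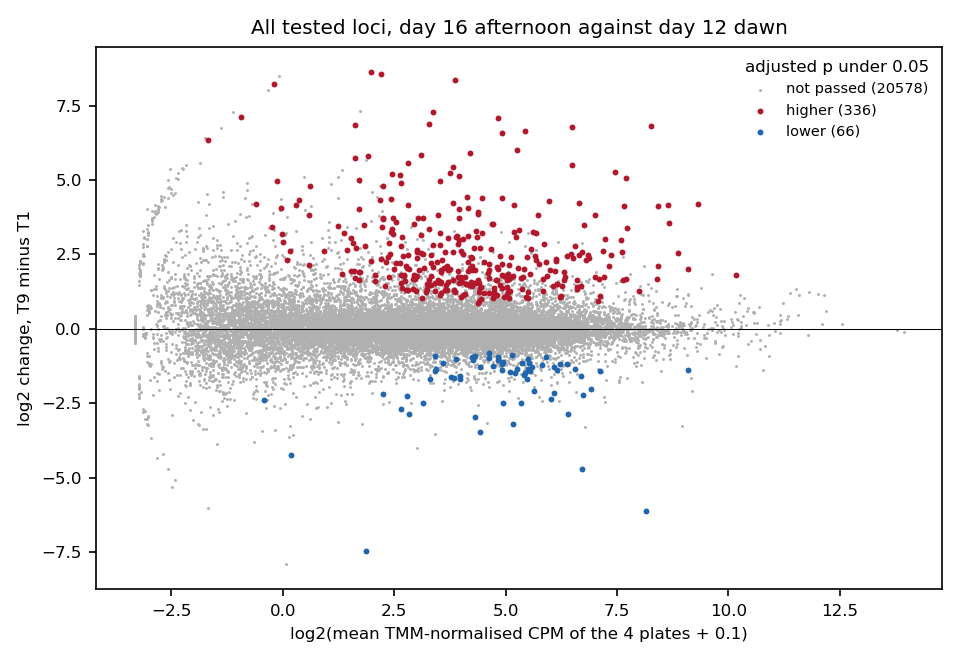
Each point is 1 of 20980 tested loci, with the log2 mean level of the 4 plates on the horizontal axis and the log2 change, T9 minus T1, on the vertical axis. The 336 loci that were higher (red) reach a log2 change of 8.64 and the 66 that were lower (blue) reach -7.47.

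Of 13 dawn-phased clock genes tested, 4 fell between T1 and T9, 1 rose and 8 did not pass (38.5% passed, beside 1.92% of all tested loci). LHY, a MYB repressor of evening genes, measured 445 and 683 CPM on the T1 plates of batches 1 and 2 and 6.93 and 9.13 CPM on the T9 plates (log2 change -6.11 ± 0.71, SE, adjusted p = 0.000508). Each T1 plate was far above every T9 plate. RVE8 and RVE4 are LHY relatives that activate evening genes. RVE8 measured 56.1 and 71.6 CPM at T1 and 9.73 and 4.95 CPM at T9 (-3.21 ± 0.58, adjusted p = 0.00991). RVE4 measured 178 and 173 CPM at T1 and 43.2 and 32.3 CPM at T9 (-2.24 ± 0.34, adjusted p = 0.00289). The related MYB gene RVE2 also fell, from 314 and 92.2 CPM to 10.9 and 3.92 CPM (-4.72 ± 0.85, adjusted p = 0.0098). In these 3 genes too the plates of the times did not overlap. With 2 plates per time, plates that do not overlap are weak evidence by themselves, here and below. The share of all loci with such plates is not given here.

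CCA1, the closest relative of LHY, measured 179 and 298 CPM at T1 and 95.7 and 21.1 CPM at T9, and did not pass (-2.31 ± 0.84, adjusted p = 0.25). Its T9 plate of batch 1 stood well above that of batch 2. The same order held for RVE1, a MYB gene that links the clock to auxin, which measured 114 and 126 CPM at T1 and 38.3 and 13.1 CPM at T9 (-2.42 ± 1.02, adjusted p = 0.359). PRR9, the earliest of the pseudo-response regulators, measured 0.239 and 3.57 CPM at T1 and 29.1 and 3.35 CPM at T9, so its batch 2 plates were level (2.34 ± 1.01, adjusted p = 0.379). The transcriptional coactivators of the LNK family did not pass. LNK1 measured 11.3 and 38.1 CPM at T1 and 109 and 48.3 CPM at T9, and LNK2 131 and 350 CPM at T1 and 65.0 and 64.2 CPM at T9 (adjusted p = 0.271 and 0.0748). LNK3 (13.7 and 75.6 CPM at T1, 16.4 and 8.95 CPM at T9) and LNK4 (12.9 and 67.9, then 19.3 and 15.2 CPM) were high on the T1 plate of batch 2 alone. RVE7 rose, from 3.11 and 1.70 CPM to 17.3 and 5.19 CPM (2.05 ± 0.41, adjusted p = 0.0177), and the listed locus AT5G52660 measured 7.02 and 5.79 CPM at T1 and 11.1 and 6.57 CPM at T9 (adjusted p = 0.818). The median log2 change of the 13 dawn genes was -1.74, beside -0.02 over all loci.

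Several day- and evening-phased genes were barely detected at dawn and abundant in the afternoon. FKF1, a blue-light receptor of the F-box family, had 5 counts over both T1 plates (0.106 and 0.0435 CPM) and reached 32.1 and 25.2 CPM at T9 (8.36 ± 1.03, adjusted p = 0.000854). GI, which binds FKF1 and stabilises clock proteins, went from 0.877 and 1.61 CPM to 74.4 and 76.0 CPM (6.00 ± 0.63, adjusted p = 0.000331). The day repressor PRR5 went from 0.505 and 0.740 CPM to 55.3 and 63.2 CPM (6.59 ± 0.72, adjusted p = 0.000419). In all 3 the T9 plates agreed closely with each other and lay more than an order of magnitude above T1.

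PRR7 rose from 3.06 and 9.31 CPM to 112 and 128 CPM (4.31 ± 0.49, adjusted p = 0.000483). Of the evening complex, the repressor of growth genes at night, ELF4 rose from 0.478 and 0.0870 CPM to 18.9 and 8.16 CPM (5.58 ± 0.54, adjusted p = 0.000165). Its partner LUX rose from 9.25 and 9.09 CPM to 18.6 and 32.2 CPM (1.49 ± 0.30, adjusted p = 0.018). ELF3, the third component, was level at 47.2 and 24.3 CPM at T1 and 30.1 and 43.2 CPM at T9 (0.00 ± 0.35, adjusted p = 1.00). BOA, a close relative of LUX, measured 5.0 and 1.57 CPM at T1 and 0.915 and 1.03 CPM at T9 (-1.64 ± 0.61, adjusted p = 0.266). The plates of the evening complex genes overlapped between the times for ELF3 and not for ELF4, LUX or BOA.

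The RNA-binding proteins GRP7 and GRP8 form a slave oscillator driven by the clock. GRP7 measured 66.6 and 65.3 CPM at T1 and 1116 and 1309 CPM at T9 (4.19 ± 0.51, adjusted p = 0.000698), and GRP8 43.4 and 41.9 CPM, then 309 and 378 CPM (2.99 ± 0.40, adjusted p = 0.000979). COR27, a regulator of clock and cold responses, rose from 1.06 and 1.00 CPM to 8.21 and 10.7 CPM (3.24 ± 0.76, adjusted p = 0.0441). AT4G33980 did not pass, at 0.585 and 0.479 CPM and then 3.69 and 12.6 CPM (adjusted p = 0.0578). TOC1, the evening repressor, measured 27.1 and 18.9 CPM at T1 and 61.4 and 64.2 CPM at T9 (1.47 ± 0.39, adjusted p = 0.0716), and PRR3 5.29 and 1.26 CPM, then 10.1 and 14.3 CPM (adjusted p = 0.464). Neither passed, and the plates of the times did not overlap in either. Of 14 day and evening genes 9 rose, none fell and 5 did not pass, with a median log2 change of 3.51. The share that passed was 64.3%, beside 1.92% of all tested loci. Of the 14 clock genes that passed in both lists, 10 still passed without the T1 plate of batch 1, 11 without that of batch 2, 10 without the T9 plate of batch 1 and 9 without that of batch 2. LHY, RVE4, PRR7, PRR5, GI, FKF1, ELF4, GRP7 and GRP8 passed in all 4 fits, and COR27 in none of them.

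**Figure D2:**
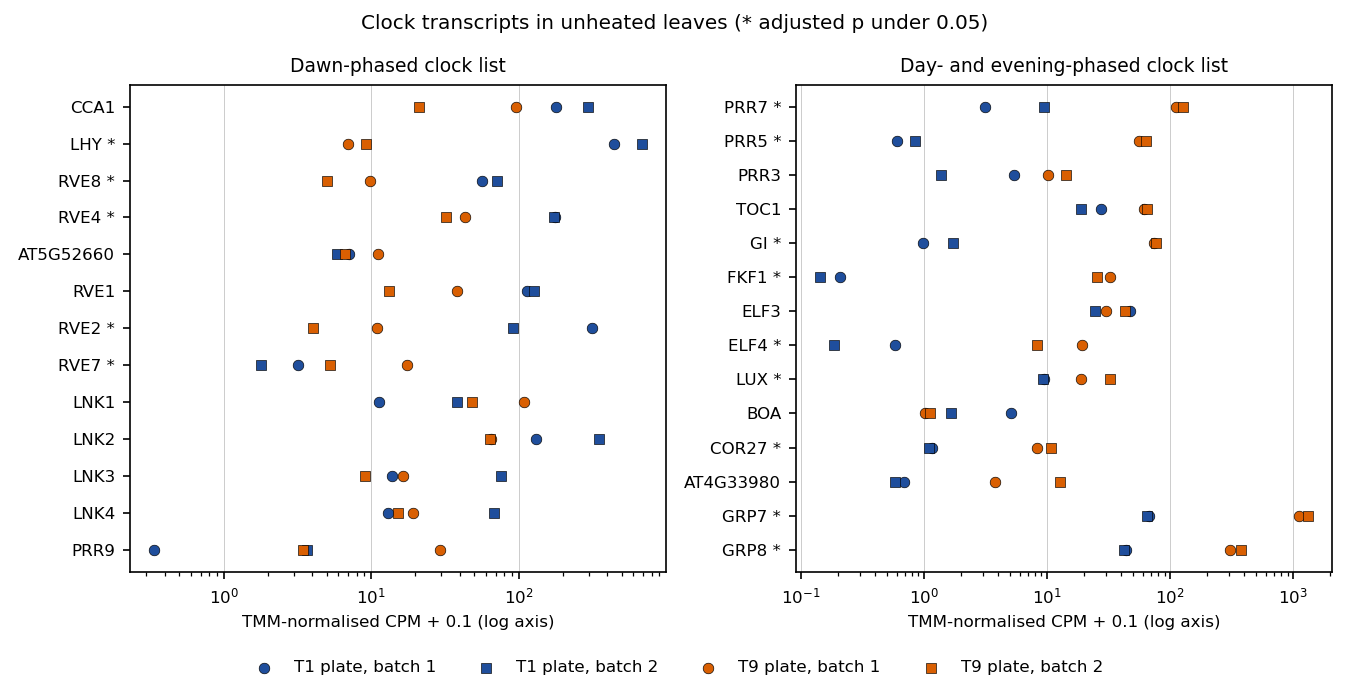
The panels plot the level of each clock gene on the 4 plates, with CPM plus 0.1 on a log axis, blue for T1, orange for T9, circles for batch 1 and squares for batch 2. LHY falls from 445 and 683 CPM to 6.93 and 9.13 CPM, while GI, PRR5 and FKF1 move the other way with T9 plates that nearly coincide.

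The evening element was searched in the window from 250 bases before to 50 after the RefSeq gene start (TAIR10.1), as AAAATATCT on both strands. It occurred in 75 of 335 promoters of loci that were higher at T9 (22.4%), in 1 of 66 of those that were lower (1.52%) and in 641 of all 20797 promoters of tested loci (3.08%). It was in 6 of the 9 day and evening genes that passed. Of these 6, windows around the copy farthest from the gene start are printed for the 5 in which they lie wholly before it, to show the element in place, and GRP8 is the other gene. Capitals mark every copy as read on the gene's strand, where AGATATTTT is the reverse complement.
PRR5, chr5:8358700-8358758, minus strand: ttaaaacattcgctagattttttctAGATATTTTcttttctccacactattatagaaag
FKF1, chr1:25508428-25508486, plus strand: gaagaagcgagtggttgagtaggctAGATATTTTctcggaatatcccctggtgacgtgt
LUX, chr3:17182964-17183022, plus strand: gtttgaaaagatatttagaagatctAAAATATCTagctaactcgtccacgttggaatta
COR27, chr5:17199916-17199974, minus strand: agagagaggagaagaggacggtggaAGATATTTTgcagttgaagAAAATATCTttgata
GRP7, chr2:9266600-9266658, minus strand: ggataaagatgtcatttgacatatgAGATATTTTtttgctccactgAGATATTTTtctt
The element begins 187 bases before the start in PRR5, 186 in FKF1, 53 in LUX, 39 and 20 in COR27, and 76, 55 and 31 in GRP7, of which the first 2 are in the printed window. FKF1 holds another copy that begins at the gene start, and PRR5 and LUX hold 1 each. Other searched motifs were nearer to the background. The CCA1-binding site AAAAATCT was in 10.4% of higher, 6.06% of lower and 7.96% of all promoters. The G-box CACGTG was in 14.3%, 13.6% and 8.76%, and the heat shock element GAANNTTC in 12.5%, 15.2% and 11.5%. The telo-box AAACCCTAA was in 1.19%, 0% and 3.18%, and the mitosis-specific activator core AACGG in 24.8%, 25.8% and 26%. These are letter matches with no test, and a match is not a binding site.

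In the lists of flowering and growth genes a few members moved. CDF2, a Dof protein that represses the flowering regulator CONSTANS, measured 27.4 and 42.4 CPM at T1 and 4.49 and 4.41 CPM at T9 (-2.98 ± 0.53, adjusted p = 0.00856). SOC1, a MADS-box promoter of flowering, rose from 9.22 and 7.62 CPM to 56.7 and 25.1 CPM (2.16 ± 0.35, adjusted p = 0.00401). SVP, a MADS-box repressor of flowering, rose as well, from 11.0 and 21.5 CPM to 40.9 and 64.1 CPM (1.71 ± 0.34, adjusted p = 0.0159). The T1 and T9 plates of these 3 genes did not overlap. Of 14 photoperiod and flowering genes 2 rose, 1 fell and 11 did not pass, with a median of -0.09 (21.4% passed, beside 1.92% of all tested loci). AT1G69570 was among those that did not pass (-2.50 ± 0.63, adjusted p = 0.0566). PIF4, a bHLH factor that drives growth, rose from 9.12 and 19.5 CPM to 81.3 and 120 CPM (2.86 ± 0.37, adjusted p = 0.000933) and was the 1 of 15 members of its list that passed. The list's PIL1 (1.97 and 1.00 CPM, then 0.214 and 0.270 CPM) and HYH (31.4 and 41.7, then 21.0 and 3.89 CPM) did not pass (adjusted p = 0.119 and 0.177). PIF4 passed without any 1 of the 4 plates. SOC1 lost its call without the T1 plate of batch 1, and CDF2 and SVP kept theirs only without the T1 plate of batch 1 and of batch 2, respectively.

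Of 29 tested genes for starch turnover, 6 rose, 1 fell and 22 did not pass, with a median log2 change of 0.93. The share that passed was 24.1%, beside 1.92% of all tested loci. AMY3, a plastid alpha-amylase, measured 9.14 and 11.4 CPM at T1 and 191 and 186 CPM at T9 (4.22 ± 0.71, adjusted p = 0.0061). PHS2, the cytosolic glucan phosphorylase, rose from 23.1 and 20.8 CPM to 404 and 364 CPM (4.13 ± 0.58, adjusted p = 0.0016). DPE2, which processes maltose in the cytosol, rose from 36.2 and 43.9 CPM to 276 and 228 CPM (2.62 ± 0.38, adjusted p = 0.00212). In each the 2 T9 plates lay close together and far above T1. APL3, a large subunit of ADP-glucose pyrophosphorylase in starch synthesis, rose from 5.48 and 10.1 CPM to 68.3 and 33.0 CPM (2.45 ± 0.47, adjusted p = 0.0132). BAM5, a beta-amylase outside the plastid, went from 0.0266 and 3.74 CPM to 88.5 and 80.3 CPM (6.64 ± 1.47, adjusted p = 0.0289). Its 88.5 CPM on the T9 plate of batch 1 came from 1 tube, at 205 CPM, while the other tube held 0.321 CPM. The tubes of the T9 plate of batch 2 held 61.4 and 106 CPM. Without the higher tube of batch 1 BAM5 did not pass (adjusted p = 0.254, edgeR), and in the other fits without 1 tube its adjusted p ran from 0.0218 to 0.0396. The tubes of APL3 on the T9 plate of batch 1 held 34.9 and 113 CPM, and those on the T1 plate of batch 2 held 4.42 and 17.3 CPM. Without the lower of these T1 tubes APL3 did not pass (adjusted p = 0.171, edgeR). BAM9, a beta-amylase family member, fell from 97.4 and 202 CPM to 12.5 and 28.2 CPM (-2.88 ± 0.63, adjusted p = 0.0285). None of the 7 starch calls held in all 4 fits without a plate. Of the 7, 0 passed without the T1 plate of batch 1, 3 without that of batch 2, 3 without the T9 plate of batch 1 and 4 without that of batch 2.

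Of 26 tested genes of the cold, drought and abscisic acid response, 14 rose at T9, on plates kept at 22 °C, none fell and 12 did not pass, with a median log2 change of 1.93. The share that passed was 53.8%, beside 1.92% of all tested loci. COR15A, which encodes a chloroplast protein that protects membranes in freezing, measured 3.22 and 5.09 CPM at T1 and 926 and 288 CPM at T9 (6.82 ± 0.88, adjusted p = 0.000854). Its tandem neighbour COR15B measured 0.558 and 3.05 CPM, then 219 and 134 CPM (6.79 ± 1.13, adjusted p = 0.00562). The 2 genes are near copies, so reads could be split between them. RD29A, a classic reporter of dehydration and cold, measured 9.36 and 8.57 CPM at T1 and 478 and 210 CPM at T9 (5.25 ± 0.63, adjusted p = 0.000698). Its neighbour RD29B, which responds to abscisic acid, measured 0.346 and 0.479 CPM, then 20.6 and 3.46 CPM (4.91 ± 0.92, adjusted p = 0.0118). All T9 plates were above all T1 plates, and in these 4 genes batch 1 was the higher T9 plate. On the T9 plate of batch 2 the tubes of RD29B held 0.565 and 7.36 CPM, the first of them near the T1 level, and those of COR15A 170 and 448 CPM. Without the second of these tubes RD29B did not pass.

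COR413PM1, a plasma membrane protein, rose from 30.1 and 46.5 CPM to 447 and 316 CPM (3.38 ± 0.45, adjusted p = 0.00109). KIN1 rose from 1.91 and 1.09 CPM to 47.0 and 11.1 CPM (4.04 ± 0.55, adjusted p = 0.00117), and its near copy KIN2 from 39.5 and 58.4 CPM to 453 and 227 CPM (2.59, adjusted p = 0.0177). The tubes of KIN1 on the T9 plate of batch 2 held 4.002 and 20.75 CPM, and those of RAB18, described next, 5.37 and 35.3 CPM. The members named next were picked with their values known. Those that passed were the dehydrins COR47, ERD10, ERD14, LTI30 and RAB18 (log2 changes of 2.11, 2.77, 1.75, 3.86 and 4.39), the galactinol synthase GOLS3 (5.01) and the protein phosphatase ABI2 (1.64), a negative regulator of abscisic acid signalling. The cold regulator CBF3 had 2 counts over both T1 plates and did not pass (adjusted p = 0.0578), and CBF2 measured 3.24 and 2.13 CPM at T1 and 3.20 and 2.22 CPM at T9 (adjusted p = 1.00). NCED3, the abscisic acid synthesis enzyme, did not pass either, at 3.35 and 3.44 CPM and then 16.6 and 6.76 CPM (adjusted p = 0.35). The largest log2 change of the whole list, 7.33, was that of a member that did not pass. A gene that did not pass is therefore not shown to be level. Of the 14 calls, 3 remained without the T1 plate of batch 1, 7 without that of batch 2, 7 without the T9 plate of batch 1 and 12 without that of batch 2. COR15A, RD29A and COR413PM1 passed in all 4 fits.

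**Figure D3:**
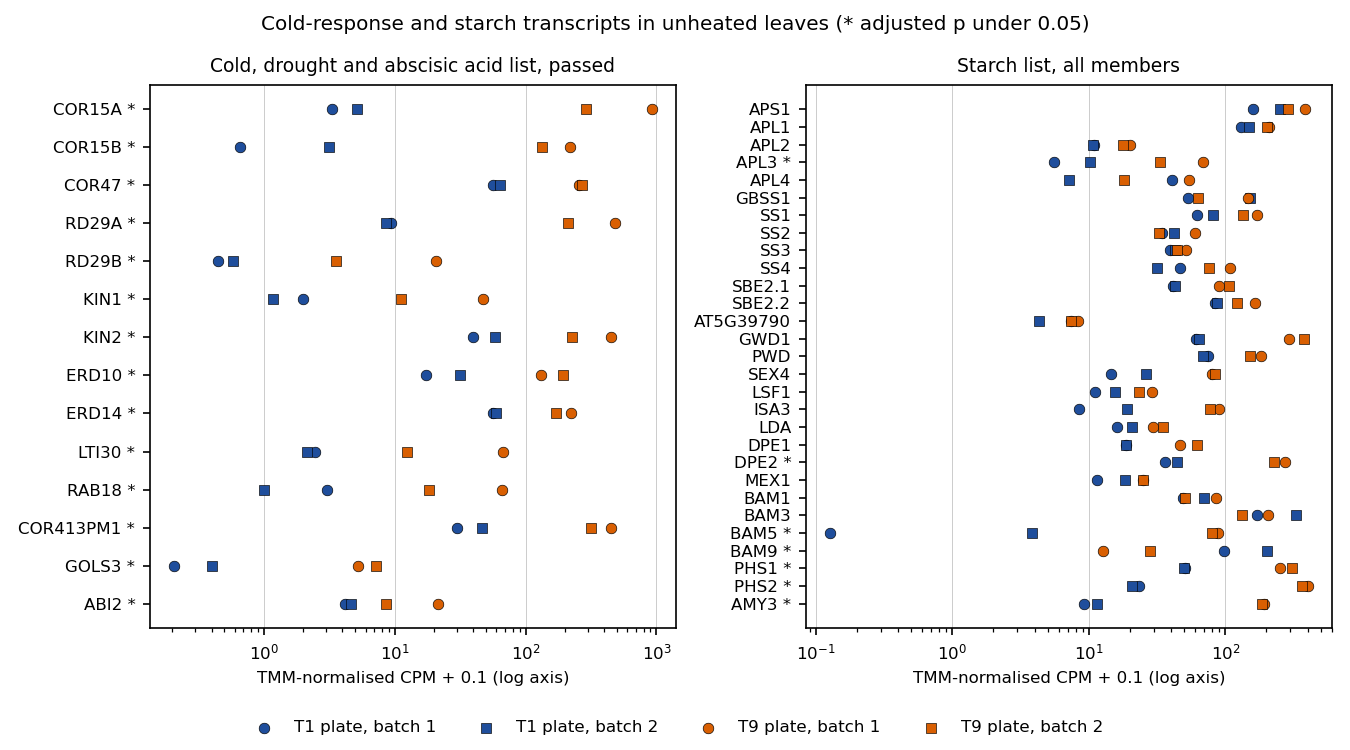
The panels plot the level on the 4 plates of the 14 cold, drought and abscisic acid genes that passed and of all 29 starch genes, with CPM plus 0.1 on a log axis and colours and shapes for time point and batch. COR15A rises from 3.22 and 5.09 CPM to 926 and 288 CPM, and BAM9 is the starch gene that passed in the other direction.

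The C-repeat core CCGAC, which the CBF factors bind, was searched in the same window after the values had been seen. It occurred in 6 of the 14 cold-list genes that passed (42.9%), in 23.0% of all higher promoters, 13.6% of lower ones and 16.2% of all. The evening element was in 3 of the 14 (21.4%). Windows are printed for genes that passed in all 4 fits and for RAB18, which holds an evening element, with the motif in capitals.
COR15A, chr2:17712380-17712434, minus strand: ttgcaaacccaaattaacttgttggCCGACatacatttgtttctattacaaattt
RD29A, chr5:21240552-21240606, plus strand: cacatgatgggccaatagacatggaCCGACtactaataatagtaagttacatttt
COR413PM1, chr2:6949653-6949707, plus strand: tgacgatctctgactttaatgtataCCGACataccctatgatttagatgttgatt
RAB18, chr5:26519475-26519533, minus strand: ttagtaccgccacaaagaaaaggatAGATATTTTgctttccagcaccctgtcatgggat
The printed C-repeat cores begin 79 bases before the start in COR15A, 140 in RD29A and 173 in COR413PM1. COR15A holds another copy at 142 bases before the start, and RD29A others at 90 and 33 before it and 1 just after it, which are not printed.

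In the hormone and defence lists edgeR called few members. In the jasmonate list 12.9% of tested members passed and in the salicylic acid and defence list 9.52%, beside 1.92% of all tested loci. In the jasmonate list 4 of 31 genes rose and none fell, with a median of 0.69. At an unadjusted p under 0.05 (edgeR), 11 were higher and 0 lower, while DESeq2 called 7 higher and limma 5. Of the 4 edgeR calls, 3 encode synthesis enzymes. AOC2 rose from 31.9 and 37.7 CPM to 200 and 191 CPM (2.47 ± 0.48, adjusted p = 0.0145), LOX3 from 2.31 and 3.61 CPM to 9.86 and 10.3 CPM (1.8 ± 0.44, adjusted p = 0.0476) and OPR3 from 16.0 and 13.2 CPM to 25.5 and 27.8 CPM (0.86 ± 0.20, adjusted p = 0.0366). The storage protein gene VSP2, a jasmonate response gene, rose from 3.14 and 12.3 CPM to 63.5 and 131 CPM (3.82 ± 0.77, adjusted p = 0.0175). The plates of the times did not overlap in any of the 4, yet none of the 4 passed in any fit that left out a plate. Of 21 salicylic acid and defence genes 2 rose in edgeR and in DESeq2, and limma called 0. In edgeR 5 were higher and 0 lower at an unadjusted p under 0.05. PR1, a marker of salicylic acid signalling, measured 0.0266 and 0.174 CPM at T1 and 1.95 and 38.6 CPM at T9 (7.29 ± 0.98, adjusted p = 0.0011), so its level was carried by the batch 2 plate, whose tubes held 55.0 and 16.4 CPM, while those of the batch 1 plate held 0 and 4.54 CPM. It lost its call without the T1 plate of batch 2. FRK1, a receptor kinase gene of pattern-triggered defence, had 3 counts over both T1 plates and 110 over both T9 plates, a ratio of 31.9 (exact 95% interval of 10.6 to 157, which covers counting error only), and it passed, although only without the T9 plate of batch 2 among the 4 fits. PR2 and PR5 did not pass (adjusted p = 0.271 and 0.25).

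Nutrient and pigment lists also held few calls, and single genes in short lists say little beside the 1.92% of all tested loci that passed. MGD3, a galactolipid synthase of phosphate-starved plants, rose from 0.186 and 0.653 CPM to 3.14 and 13.7 CPM (4.31 ± 0.94, adjusted p = 0.0269) and was the 1 of 13 phosphate starvation genes that passed. The list's median was 1.16, 8 members were higher at an unadjusted p under 0.05, and DESeq2 called 4 of them. The sulfolipid enzyme SQD2 measured 32.8 and 46.6 CPM, then 65.8 and 117 CPM (1.2 ± 0.29, adjusted p = 0.05, just above the threshold). GGCT2;1, a glutathione-degrading enzyme, rose from 0.399 and 0.957 CPM to 7.51 and 9.78 CPM (3.73 ± 0.53, adjusted p = 0.0016) as the 1 of 12 sulfur deficiency genes. MYBL2, a repressor of anthocyanin synthesis, rose from 1.25 and 7.75 CPM to 37.8 and 57.7 CPM (3.51 ± 0.64, adjusted p = 0.00989), the 1 of 25 anthocyanin and flavonol genes that passed. Each of the 3 called genes lost its call without at least 1 plate.

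Lists tied to leaf age and growth gave nearly no calls. None of the 25 mitotic genes, 15 DNA replication genes, 19 expansin and xyloglucan enzyme genes or 16 chlorophyll synthesis genes passed in edgeR, DESeq2 or limma, and none had an unadjusted p under 0.05. Their medians were -0.20, -0.16, -0.37 and 0.15, but the batches did not agree. In the same order, the median differences were -0.53, -0.43, -0.89 and 0.41 in batch 1 and 0.16, 0.27, 0.05 and -0.14 in batch 2. Opposite signs were seen in 22 of 25, 11 of 15, 11 of 19 and 8 of 16 genes. These lists are therefore not shown to be level. The mitotic kinase AUR1, for example, measured 12.2 and 11.1 CPM at T1 and 7.08 and 11.1 CPM at T9 (-0.40 ± 0.34, adjusted p = 0.843). Of 17 leaf growth regulators TCP2, a TCP factor of leaf development, rose from 20.6 and 16.2 CPM to 81.8 and 42.7 CPM (1.72 ± 0.30, adjusted p = 0.00808), and it passed only without the T9 plate of batch 2 among the 4 fits. TCP2 was the 1 call among the 17, which is 5.88% of them, beside 1.92% of all tested loci. SPL9, a factor of the adult leaf phase, measured 3.80 and 3.83 CPM and then 19.99 and 8.51 CPM (1.76 ± 0.43, adjusted p = 0.0518). It was among 15 SPL and AP2-like genes of which edgeR called 0, with 2 higher at an unadjusted p under 0.05, DESeq2 2 and limma 1.

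Of 21 senescence and chlorophyll breakdown genes edgeR called 0, with 4 higher and 1 lower at an unadjusted p under 0.05, and DESeq2 and limma called 1 higher and 1 lower each. SAG21 measured 471 and 1341 CPM at T1 and 56.5 and 126 CPM at T9 (-3.27 ± 0.88, adjusted p = 0.078), and the chlorophyll catabolite reductase RCCR 24.9 and 29.4 CPM, then 96.2 and 50.9 CPM (1.31 ± 0.34, adjusted p = 0.0711). Their plates did not overlap. Of 40 photosystem and light-harvesting genes and 19 Calvin cycle genes none passed in any of the 3 tools, with 1 and 0 at an unadjusted p under 0.05 and medians of 0.27 and -0.05. LHCA1 measured 1069 and 2299 CPM at T1 and 3624 and 4707 CPM at T9 (adjusted p = 0.446). For 28 glucosinolate genes the median was 0.58, and edgeR, DESeq2 and limma called 0 while 4 were higher at an unadjusted p under 0.05. For 14 nitrogen genes and 9 type-A response regulators edgeR called 0, with 4 and 1 at an unadjusted p under 0.05, and DESeq2 and limma called 1 nitrogen gene each. Of 16 iron genes none passed in the 3 tools or at an unadjusted p under 0.05. Of 314 ribosomal protein genes 1 fell, which is 0.32%, beside 0.315% of all tested loci that were lower.

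**Figure D4:**
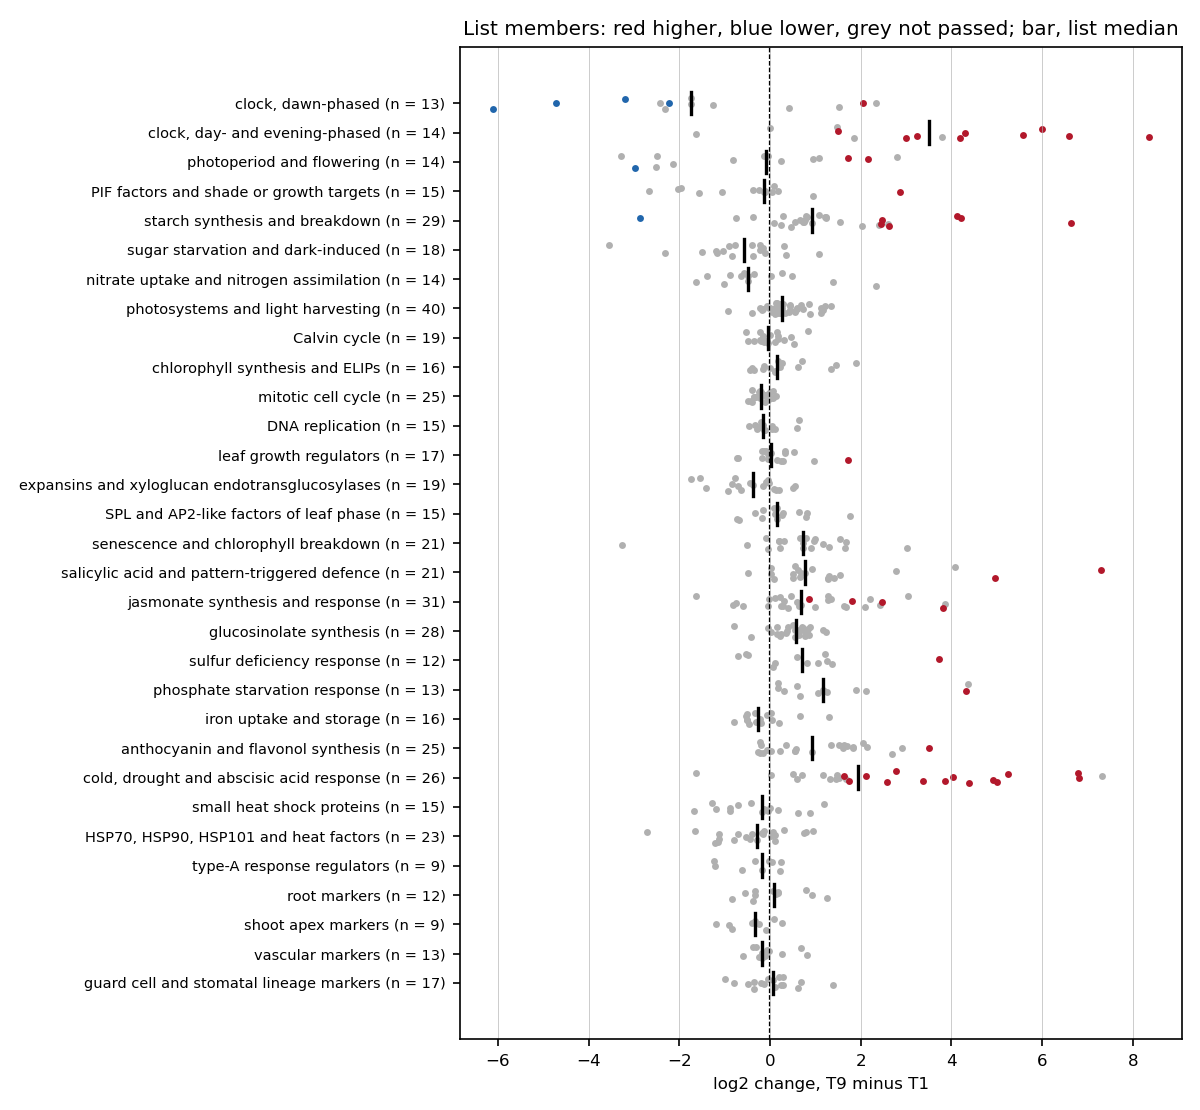
Each point is the log2 change, T9 minus T1, of 1 tested member of a list (red higher, blue lower, grey not passed), black bars are list medians and the dashed line is the median of all tested loci, -0.02. The clock and cold lists hold most of the coloured points, with medians of -1.74, 3.51 and 1.93.

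Heat genes of the lists did not pass. Of 15 small heat shock protein genes and 23 genes of the larger chaperones and heat factors, none passed in edgeR, DESeq2 or limma, with 0 and 2 at an unadjusted p under 0.05 and medians of -0.18 and -0.28. Summed levels on the 4 plates, T1 first, were 70.8, 34.0, 30.4 and 37.9 CPM for the first list and 2059, 2239, 2067 and 1622 CPM for the second. HSP101, the disaggregase that acquired thermotolerance needs, measured 16.6 and 12.0 CPM at T1 and 5.86 and 7.54 CPM at T9 (-1.12 ± 1.16, adjusted p = 0.906). Its T1 and T9 plates did not overlap, with log2 differences of -1.49 in batch 1 and -0.66 in batch 2. HSFA2, a heat-induced transcription factor, measured 3.14 and 0.957 CPM, then 0.763 and 1.297 CPM (adjusted p = 0.931), and its plates overlapped. The test takes its spread from all plates of the series, among them plates heated earlier that differed widely between batches. On T5, HSP101 measured 12.8 and 320 CPM and HSFA2 1.77 and 69.1 CPM in batches 1 and 2. A heat gene that did not pass is therefore not shown to be level. HSP21, HSP18.2, APX2 and MBF1C did not pass (adjusted p from 0.838 to 0.995). HSFA8, a heat shock transcription factor gene outside the lists that was picked with its values known, rose from 0.611 and 1.31 CPM to 9.58 and 9.92 CPM (3.35 ± 0.57, adjusted p = 0.00687). It was the 1 of 127 tested loci with a heat shock term in the product name that passed, beside 1.92% of all tested loci.

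The 12 largest rises with a gene symbol and at least 10 CPM were, beside clock, cold, starch and defence genes above, LTP4 and FBA5. The lipid transfer protein gene LTP4 went from 0.611 and 0.740 CPM to 48.7 and 11.6 CPM (5.14 ± 1.09, adjusted p = 0.0229). The aldolase gene FBA5 went from 7.15 and 18.1 CPM to 484 and 321 CPM (5.05 ± 0.94, adjusted p = 0.0116). Of the 12 largest falls, 6 are in no list described above. The glucosyltransferases UGT73B2 (104 and 111 CPM, then 13.2 and 31.1 CPM) and UGT75B1 (190 and 192, then 36.9 and 59.9 CPM) fell by 2.37 and 2.03 on the log2 scale. The beta-glucosidase BGLU11 fell by 2.16, the nucleobase permease NCS1 by 2.1, the TCP factor TCP9 by 1.70 and the SNARE protein gene VAMP724 by 1.69. Plates of T1 and T9 did not overlap in any of these genes. LTP4, BGLU11 and TCP9 lost their calls in all 4 fits without a plate, and the others here in 1 to 3 of them. FKF1, COR15B, LUX, FRK1, BAM9, UGT75B1 and TCP9 overlap a locus on the opposite strand and FBA5 and PHS2 one on the same strand, and whether the authors counted reads by strand is not given here, so reads of such pairs could be mixed.

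The differences from T1 were unlike in the 2 batches in several lists, of which those of sugar starvation and anthocyanin genes are described here. In the list of sugar starvation and dark-induced genes the median difference from T1 was -1.23 in batch 1 and 0.13 in batch 2, and 9 of 18 genes had opposite signs. Over all loci the medians were -0.02 and 0.00, and 7766 of 20980 had opposite signs. Other lists held more opposite signs, among them 22 of 25 mitotic genes (medians of -0.53 and 0.16) and 14 of 19 Calvin cycle genes (0.45 and -0.47). DIN1, a dark-induced gene, measured 30.3 and 60.9 CPM at T1 and 0.946 and 61.6 CPM at T9 (-2.32 ± 0.92, adjusted p = 0.316). AKINBETA1, a subunit of the energy sensor kinase SnRK1, measured 39.5 and 51.0 CPM, then 9.31 and 37.0 CPM, and the transcription factor gene BZIP63 46.2 and 36.8 CPM, then 10.6 and 27.8 CPM (adjusted p = 0.11 and 0.276). The batch 2 plate was the higher T9 plate in all 3. BGLU30, also among the 4 genes of this list with the smallest p, did not share this order. It measured 2.34 and 37.4 CPM at T1 and 1.37 and 0.865 CPM at T9 (-3.55 ± 1.24, adjusted p = 0.217, edgeR). No gene of this list passed in edgeR or limma, 6 were lower at an unadjusted p under 0.05 and DESeq2 called 1 lower.

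In the anthocyanin and flavonol list the order was the reverse. Its median difference was 2.39 in batch 1 and 0.10 in batch 2, and 11 of 25 genes had opposite signs, beside 7766 of 20980 over all loci. PAP1, a MYB activator of anthocyanin synthesis, measured 0.797 and 2.22 CPM at T1 and 20.9 and 2.41 CPM at T9 (2.92 ± 0.93, adjusted p = 0.165). The flavonoid hydroxylase TT7 measured 2.34 and 2.31 CPM, then 21.1 and 5.78 CPM (adjusted p = 0.119), and the acyltransferase AT5MAT 1.89 and 6.05 CPM, then 48.5 and 8.03 CPM (adjusted p = 0.415). The T9 plate of batch 1 stood above the other 3 plates in each. With 1 plate per batch and time, a difference between batches cannot be told apart from a difference between plates, and it was not tested.

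**Figure D5:**
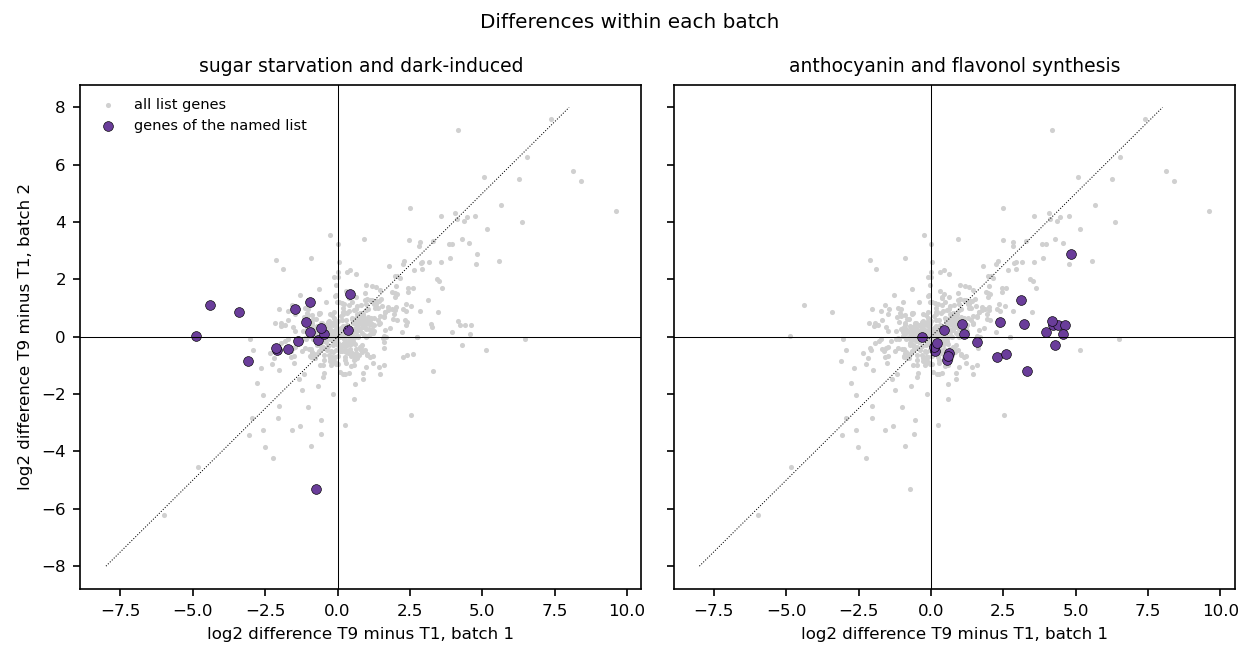
The log2 difference T9 minus T1 is plotted for each list gene in batch 1 (horizontal) against batch 2 (vertical), with the named list in purple, all list genes in grey and a dotted line of equal difference. Most sugar starvation genes lie to the left of the line with a batch 1 median of -1.23, and most anthocyanin genes to the right of it with a batch 1 median of 2.39.

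Plates that had been heated earlier and were sampled at 22 °C at the same hour give values beside these, and all such comparisons share the T1 plates. On T6, day 16 after acclimation on day 12, LHY measured 17.59 and 12.6 CPM, GI 23.8 and 56.0 CPM and COR15A 492 and 170 CPM in batches 1 and 2. On T5, day 14, they measured 3.62 and 24.6, 139 and 56.3, and 2403 and 212 CPM. On T8 and T11, day 18 after the shock, LHY measured 13.1 and 50.9, and 2.92 and 4.11 CPM. GI measured 32.3 and 58.4, and 54.0 and 123 CPM, and COR15A 948 and 396, and 1480 and 672 CPM. All of these plates had less LHY and more GI and COR15A than either T1 plate. They were also older than T1 and had been heated, so age, hour and earlier heat cannot be told apart here. DIN1 measured 0.328 and 9.72 CPM on T6 and 0.0412 and 0.522 CPM on T5, below the 61.6 CPM of the T9 plate of batch 2.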

How the data were processed

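RNA of leaves was sequenced from TruSeq Stranded mRNA libraries, per the labels' protocols. The deposited tables give raw counts of reads per locus, and a deposited table gives log2 CPM values by the authors for 18864 loci, with 1 column that matched no sample and was not used. HTSeq, SAMtools, Bowtie2 2.1.0.0, TopHat2 2.0.14, the build TAIR10 and bcl2fastq 1.8.4 are named, per the submitters' processing notes. Summary lines that name no gene (11.7% to 21.5% of reads at T1 and T9) were left out. The tubes of a plate were summed. Loci were kept by filterByExpr (smallest count 10), and edgeR 4.0.16 (R 4.3.3) fitted time point and batch on 22 plates with TMM, a quasi-likelihood F test and Benjamini-Hochberg adjustment. The common biological coefficient of variation was 0.308, with 10 residual degrees of freedom. Batch is a labelled block. Across loci the batch deviations of T1 and T9 correlated at 0.418 (0.0993 to 0.717 over pairs of time points).

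Named were the 12 largest rises and 12 largest falls (adjusted p under 0.05, at least 10 CPM, same sign in both batches, a symbol), all clock list members, and from each other list mainly the 4 with the smallest p. The comparison and the lists were chosen with earlier results of these data known. Ribosomal proteins were taken by product name. Names and promoters came from RefSeq TAIR10.1, which held 32835 of 33602 loci, 10654 of them with a symbol. Differences within a batch are log2 CPM with a prior count of 2. DESeq2 1.42.0, and limma 3.58.1 on the authors' log2 values, were alternatives, with other scalings, filters and subsets of plates.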

Additional observations from a re-analysis of the deposited data

How the results depend on the processing

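Calls moved by more than 1.5 times from 336 higher and 66 lower with DESeq2 (664 and 235, 1221 loci without an adjusted p), T1 and T9 plates alone (0 and 0), plates sampled at 22 °C (137 and 15) and no replicate block (151 and 16), and with tubes as libraries (1247 and 631), which counts technical samples as replicates. Tubes of batch 1 alone gave 3893 and 3052 and tubes of batch 2 alone 469 and 226, and limma on the authors' values gave 463 and 164. Leaving out 1 plate gave 63 to 151 higher and 7 to 28 lower, with the lone plate assumed to vary like the other groups. Leaving out 1 tube of a T1 or T9 plate, chosen after seeing the data, gave 298 to 386 higher and 51 to 80 lower, and BGLU11, LOX3, OPR3, MGD3, FRK1, PHS1, LTI30, BAM5, APL3, NCS1, COR27, RD29B, ABI2 and LTP4 lost their calls without at least 1 tube. Library size scaling (237 and 48), size factors, leaving out organelle genes and both other filters stayed within 1.5 times. Library size scaling moved the median log2 change of all loci from -0.02 to -0.14 and kept 268 of the 402 calls, and all 402 kept their direction. No named gene that passed reversed in any setting. The causes were not tested. At T1, counts of 5 or fewer limit FKF1, PR1 and FRK1.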

Other observations

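Further transcripts that passed belong to no list used above and were picked with their values known. P5CS1, the rate-limiting enzyme of proline synthesis, rose from 31.9 and 46.5 CPM on the T1 plates to 799 and 486 CPM on the T9 plates (log2 change 4.12, adjusted p = 0.00297, edgeR quasi-likelihood test). Single genes with known roles in abscisic acid signalling that rose were the phosphatase HAI2 (0.159 and 0.0435 CPM, then 12.4 and 1.95 CPM), the transcription factor ABF1 and the kinases SNRK2.2 and SNRK2.3 (log2 changes of 5.82, 3.00, 1.09 and 1.98), with no list or count behind them. CYP707A2, which degrades abscisic acid, rose as well, from 0.851 and 1.00 CPM to 38.2 and 4.05 CPM (3.84, adjusted p = 0.028). Of 7 tested loci whose product name contains dehydrin, 5 rose. Of 162 loci named as cytochrome P450 8 rose and none fell, CYP71B26 among them (4.17), and of 160 named as alpha/beta-hydrolases 8 rose and 2 fell. Of 96 loci with basic helix-loop-helix in the product name none passed. The bHLH factor PIF4, which rose, lacks that term and is not among the 96. Over all tested loci 1.6% were higher and 0.315% lower. RCI2A and 2 further loci annotated as low temperature and salt responsive proteins, AT4G30650 and AT4G30660, rose by 2.51, 5.49 and 4.41.

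The sugar transporter genes SWEET4, SWEET13 and SWEET17 rose by 2.35, 3.73 and 1.53 on the log2 scale, 3 genes singled out from their family. SWEET11 of the same family did not pass, at 146 and 104 CPM and then 92.4 and 73.5 CPM (-0.60). TPL, a corepressor that works with many transcription factors, fell from 214 and 191 CPM to 78.9 and 73.7 CPM (-1.41, adjusted p = 0.00671). Of the SNARE protein genes, SYP23 and VAMP711 were lower (-1.47 and -1.18) and VAMP713 was higher (1.55), 3 genes singled out among others. The smallest adjusted p was that of AT1G56300, annotated as a DnaJ-domain protein, at 0.585 and 0.261 CPM and then 63.8 and 48.3 CPM (7.07, adjusted p = 9.18e-08).

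Both tubes of a plate carried the difference between the T9 plates in the sugar starvation genes DIN1 and DIN10. DIN1 measured 0.642 and 1.35 CPM in the tubes of the batch 1 plate and 42.6 and 87.1 CPM in those of the batch 2 plate. DIN10, picked with its values known, measured 19.1 and 30.9 CPM and then 274 and 319 CPM, beside 252 to 268 CPM in the T1 tubes of batch 1 and 154 to 167 CPM in those of batch 2. For the anthocyanin activator PAP1 the batch 1 tubes of T9 were the higher ones, at 17.9 and 24.9 CPM against 2.87 and 1.78 CPM.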
